A study of Homo sapiens with 22 samples.

Results

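The genes described here are 10 components or regulators of the contractile apparatus of muscle and myofibroblasts, followed through the mRNA-driven reprogramming of human BJ fibroblasts to induced pluripotent stem cells. They were chosen by symbol, as 10 of the 33694 genes in the files. They are the 4 muscle-type actins, ACTA1 (skeletal), ACTA2 (vascular smooth muscle), ACTC1 (cardiac) and ACTG2 (enteric smooth muscle), and TAGLN (transgelin), CNN1 (calponin), MYL9 (a regulatory myosin light chain), TPM1 and TPM2 (tropomyosins) and CALD1 (caldesmon). BJ cells are an established line of human foreskin fibroblasts. Untreated cells were collected on D0 (D, day), and cells given mRNA transfections on D3, D5, D7, D9, D11, D13 and D15. In the study's methods the mRNAs encoded POU5F1, SOX2, KLF4, MYC, LIN28 and NANOG, the 8 transfections ended on D8, cells grew in microfluidic chips under low oxygen, and a pluripotent stem cell medium replaced the reprogramming medium from D9. The D0 cells therefore differ from the late cells in transfection, medium and time together. Every day had 2 pools, A and B, each of cells from 4 chips of the same line, so p-values measure the spread between these pools and not between donors.

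Actin filaments sliding against myosin generate contractile force. Outside muscle, a smooth muscle set led by ACTA2 and TAGLN is switched on when fibroblasts become myofibroblasts, under tension or transforming growth factor beta. Many of these genes are controlled by serum response factor (SRF), which binds the CArG box and works with the coactivators myocardin and MRTF. The cardiac and skeletal actins are best known from striated muscle, and ACTC1 also from the embryonic heart.

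The sequences around the transcription starts of the 4 muscle actins are shown because all of them hold CArG boxes. A CArG box is a 10-base motif made of CC, a core of A and T, and GG. Exact boxes were searched for, and boxes with at most 1 G or C in the core. The motif reads the same on both strands. RefSeq (GRCh38.p14) gave windows of 250 bases before to 50 after a start for 8 of the 10 genes. TAGLN and MYL9 had no window, and the window of TPM1 was not at its canonical start, so they were not compared there. Of the 7 genes with a window at their canonical start, 4 held a box of either kind, and these 4 are the muscle actins. The others of the 7 were CALD1, TPM2 and CNN1. With all 15 windows of the 8 genes counted, 5 genes did, since CALD1 had a box with 1 G or C in the core at another start. Across 35116 promoter windows of the same length, 1.29% held an exact box and 8.13% a box of either kind. The windows lie at chr1:229434045-229434344 (minus strand) for ACTA1, chr10:88952724-88953023 (minus) for ACTA2, chr15:34795500-34795799 (minus) for ACTC1 and chr2:73892758-73893057 (plus) for ACTG2. They are written 5′ to 3′ with the boxes in capitals:
ACTA1: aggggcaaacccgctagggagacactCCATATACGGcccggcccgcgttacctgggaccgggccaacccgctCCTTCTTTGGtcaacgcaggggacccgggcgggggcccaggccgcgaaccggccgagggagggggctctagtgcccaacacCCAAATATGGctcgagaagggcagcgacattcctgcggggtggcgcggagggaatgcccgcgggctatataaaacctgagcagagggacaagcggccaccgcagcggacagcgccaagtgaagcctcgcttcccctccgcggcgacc
ACTA2: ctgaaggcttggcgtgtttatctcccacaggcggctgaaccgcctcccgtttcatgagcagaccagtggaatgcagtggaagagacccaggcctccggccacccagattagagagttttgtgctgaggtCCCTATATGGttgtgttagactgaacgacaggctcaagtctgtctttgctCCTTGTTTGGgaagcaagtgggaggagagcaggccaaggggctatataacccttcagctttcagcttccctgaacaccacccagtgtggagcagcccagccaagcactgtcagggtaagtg
ACTC1: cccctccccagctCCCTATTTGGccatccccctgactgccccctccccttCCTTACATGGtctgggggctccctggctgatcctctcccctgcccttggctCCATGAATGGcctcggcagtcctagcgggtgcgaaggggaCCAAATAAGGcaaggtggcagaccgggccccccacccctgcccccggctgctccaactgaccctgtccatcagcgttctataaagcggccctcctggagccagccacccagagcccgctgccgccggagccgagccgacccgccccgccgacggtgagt
ACTG2: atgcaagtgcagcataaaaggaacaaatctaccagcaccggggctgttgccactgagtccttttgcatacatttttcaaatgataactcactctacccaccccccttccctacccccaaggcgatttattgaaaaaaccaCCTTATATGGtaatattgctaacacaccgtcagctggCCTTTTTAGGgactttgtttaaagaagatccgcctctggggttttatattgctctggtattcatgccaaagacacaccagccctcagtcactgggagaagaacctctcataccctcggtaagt
The exact boxes began 97 bases before the start in ACTA1, 109 in ACTC1, and 110 and 73 in ACTG2. ACTA2 had no exact box, and its boxes with 1 G or C in the core began 121 and 71 bases before the start. A match is a description of the letters and shows no binding.

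**Figure D1:**
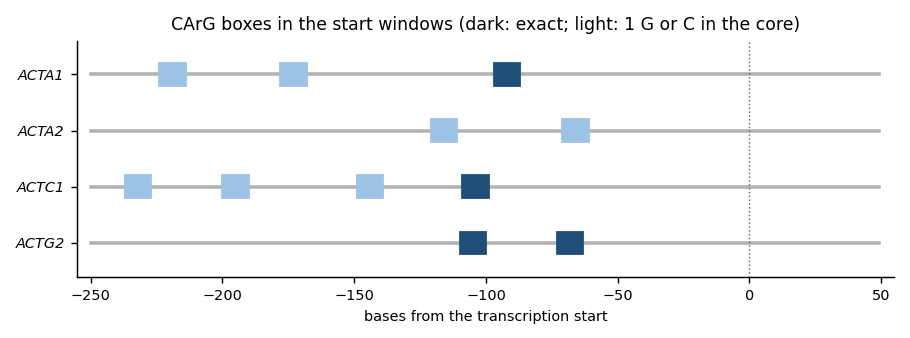
Positions of CArG boxes in the 300-base windows of the 4 muscle actins; the x axis gives bases from the transcription start, dark blocks exact boxes and light blocks boxes with 1 G or C in the core. Every window has a box between 121 and 71 bases before the start, and the exact boxes of ACTA1, ACTC1 and ACTG2 lie there.

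In the GENCODE annotation of GRCh38 the gene bodies are at chr1:229430365-229434104 (ACTA1), chr10:88935074-88991339 (ACTA2), chr15:34790107-34795589 (ACTC1), chr2:73892314-73919865 (ACTG2), chr11:117199370-117207464 (TAGLN), chr19:11538767-11550323 (CNN1), chr20:36541497-36551447 (MYL9), chr15:63042620-63071915 (TPM1), chr9:35681992-35690056 (TPM2) and chr7:134744252-134970729 (CALD1). The muscle actins are close paralogs, and whether reads were divided between them was not tested. All 10 genes were among the 12794 with a UMI in at least 5% of kept cells. ACTA1 and ACTC1 passed that filter only through the later days, since ACTA1 had a UMI in 0.0515% and ACTC1 in 0.781% of D0 cells, so their differences from D0 were built into the selection, and in part their rises from other early days.

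Of 44197 deposited barcodes in 22 libraries, 41975 were kept as cells, in 16 pools of 33181614 to 180056814 UMIs. Levels are given as CPM, the UMIs of a gene per 1000000 UMIs of a pool's kept cells, and are compared between groups but not between genes. Of 42998 barcode sequences, 1185 (2.756%) occurred in more than 1 library. Summed fibroblast markers stood at 10390 to 10630 CPM in the D0 pools and at 964.3 to 1157 CPM on D15. Summed pluripotency markers stood at 4.225 to 4.233 CPM on D0 and 3099 to 3363 CPM on D15. Pool A of D11 and pool B of D13 stood apart: 89.9% and 54.7% of their cells carried both COL1A1 and POU5F1 at high levels, against at most 13.2% in the other pools from D9 on. Counts of high cells and correlations that include these pools are also given without them. For tests, at least the range of calls with 1 pool left out is given.

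The 4 muscle-type actins each had at least 1 called rise between neighbouring days. ACTC1 and ACTG2 rose between D3 and D5, ACTA1 between D5 and D7 and again with ACTC1 by D9, and all but ACTG2 between D9 and D11. The rises of ACTA1 and ACTC1 up to D9 were in part built into the gene filter. TAGLN and CNN1 were lower on D3 than on D0. An order of the genes in time was not tested. Each step was tested on pool sums with edgeR's quasi-likelihood test across all genes, and calls required both an adjusted p (Benjamini-Hochberg) under 0.01 and a change of more than 0.25 on the log2 scale. In pool sums, fewer cells of a type and less RNA per cell cannot be told apart.

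ACTA1, the actin of skeletal muscle thin filaments, was nearly undetected at the start, with 5 UMIs in pool A and 1 in pool B of D0 (0.0300 and 0.00679 CPM). It stood at 0.0852 and 0.113 CPM on D3, 0.0938 and 0.0283 on D5 and 3.25 and 1.21 on D7. It then reached 80.7 and 130.0 CPM on D9, 660.2 and 591.5 on D11, 287.0 and 78.9 on D13, and 55.9 and 70.9 on D15. The pools of D5 overlapped those of D0 and those of D3, while the D0 pools lay below the D3 pools. Those of D7 lay above all of these days, and D11 lay above every other day. The rises of ACTA1 up to D9 were in part built into the gene filter. ACTA1 rose by 4.94 ± 0.82 (log2 fold change ± SE, 2 against 2 pools) from D5 to D7 (adjusted p = 0.004), by 5.52 ± 0.61 to D9 (adjusted p = 9.59e-05) and by 2.56 ± 0.52 to D11 (adjusted p = 0.00905, edgeR). The step to D7 rested on 9 UMIs on D5 and lost its call without either D5 pool or pool A of D7 (adjusted p 0.03 to 0.0811).

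ACTC1, the actin of the heart, had 0.246 and 0.319 CPM in the D0 pools, 88 UMIs in all. It was higher on each day sampled up to D11, with 0.767 and 0.490 CPM on D3, 6.66 and 6.66 on D5, 23.1 and 14.3 on D7, and 145.1 and 246.6 on D9. The D11 pools held 1031 and 738.8 CPM, those of D13 986.5 and 386.3, and those of D15 339.5 and 360.4. Among the 10 genes it was the one with the most ordered course: of its 7 pairs of neighbouring days in rank, only D13 and D11 had overlapping pools, although D15 and D13 also overlapped with stricter limits on cells. The log2 fold change from D3 to D5 was 3.38 ± 0.43 (adjusted p = 0.000384, edgeR). For D9 against D7 it was 3.34 ± 0.40 (adjusted p = 0.000166, edgeR). These steps were in part built into the gene filter. The change for D11 against D9 was 2.17 ± 0.38 (adjusted p = 0.00388, edgeR).

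ACTG2, the actin of enteric smooth muscle, had 7.35 and 8.63 CPM on D0 and 18.1 and 10.4 on D3. It was at 97.6 and 91.5 CPM on D5, 176.3 and 139.1 on D7, 140.2 and 144.5 on D9, 509.7 and 269.0 on D11, and 333.1 and 101.4 on D13. It was back at 37.4 and 62.6 CPM on D15, below D5 but above D3, while with stricter limits on cells (2000 or more genes, mitochondrial share up to 5%) D15 (83.9 and 171.1) overlapped D5 (98.0 and 94.7). It rose by 2.70 ± 0.47 (log2) from D3 to D5 (adjusted p = 0.0034, edgeR), and without any 1 of the 4 pools concerned the adjusted p was 0.0115 to 0.0404.

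ACTA2, the marker actin of smooth muscle and myofibroblasts, was already present in the untreated cells, at 105.3 and 105.8 CPM. It was lowest on D3 (64.2 and 52.3 CPM), and stood at 109.4 and 91.6 on D5, 202.5 and 164.0 on D7, and 192.6 and 228.5 on D9, so the pools of D3, D5 and D7 lay one above the other without overlap. D11 pools had 1088 and 692.7 CPM, D13 pools 804.7 and 244.8, and D15 pools 139.7 and 182.8. Its only called step between neighbouring days was the rise of 2.08 ± 0.39 (log2) from D9 to D11 (adjusted p = 0.00584, edgeR), with an adjusted p of 0.0101 to 0.0831 without any 1 of the 4 pools.

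TAGLN, an actin-binding protein of smooth muscle, fell from 295.8 and 292.5 CPM on D0 to 129.6 and 118.3 on D3, a log2 fold change of -1.28 ± 0.32 (adjusted p = 0.0075, edgeR). That call was lost without any 1 of the 4 pools (adjusted p 0.0311 to 0.0416), with no gene filter (0.0198) and in a fit of only these 4 pools (0.0121). It then had 227.5 and 159.9 CPM on D5, 582.3 and 658.5 on D7, 1125 and 1089 on D9, 3003 and 2248 on D11, 2556 and 941.7 on D13, and 646.5 and 866.3 on D15. The pools of D7, D9 and D11 lay one above the other without overlap. The step from D5 to D7 was 1.68 ± 0.33 (log2) and narrowly missed the call (adjusted p = 0.0105).

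CNN1, a calponin that inhibits actomyosin, had the deepest early dip, from 12.7 and 14.6 CPM on D0 to 3.58 and 3.11 on D3 (log2 fold change -2.07 ± 0.38, adjusted p = 0.00117, edgeR). D5 pools had 3.86 and 2.13 CPM and D7 pools 13.4 and 9.74, and the D9 pools were at 51.6 and 58.3 (log2 fold change from D7 2.21 ± 0.38, adjusted p = 0.00199). It then had 116.8 and 84.1 CPM on D11, 104.8 and 36.0 on D13, and 30.7 and 36.5 on D15. Without pool A or B of D7 or pool B of D9, the D9 step had an adjusted p of 0.0102 to 0.0436.

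The tropomyosins, which lie along the actin filament, ended on opposite sides of their D0 levels. TPM1 had 324.1 and 307.4 CPM on D0, 165.6 and 307.7 on D3, 533.3 and 535.5 on D5, 993.5 and 915.5 on D7, 1181 and 1385 on D9, 2331 and 1926 on D11, 1504 and 1356 on D13 and 904.5 and 1063 on D15. TPM2 went from 1703 and 1613 CPM on D0 to 996.5 and 1062 on D3, 761.9 and 729.2 on D9, 1470 and 1065 on D11, and 335.8 and 409.4 on D15. TPM2 was the gene of the set with D0 as its highest day and D15 as its lowest, with no overlap between those days and their neighbours in rank. With stricter limits on cells, D15 (563.0 and 779.8 CPM) overlapped D13 (973.3 and 761.8) and D9 (769.8 and 741.2).

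MYL9 and CALD1 were present throughout. MYL9, whose phosphorylation starts smooth muscle contraction, ranged from 216.7 to 1274 CPM over the 16 pools, and the pools of 6 of its 7 neighbouring days in rank overlapped. CALD1, which ties actin to myosin and calmodulin, ranged from 566.8 CPM (pool A of D3) to 2411 (pool A of D11). MYL9, CALD1 and both tropomyosins had no called change between neighbouring days in edgeR's test with all pools. DESeq2 called TPM1 higher on D5 than on D3 (log2 fold change 1.10, adjusted p = 0.00143). The D3 steps of TPM1 and CALD1 depended on pool B of D3. Without it, edgeR's log2 fold change from D0 to D3 was -1.02 for TPM1 and -1.51 for CALD1, against -0.43 and -0.87 with it. That of TPM1 from D3 to D5 was 1.70 against 1.11.

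**Figure D2:**
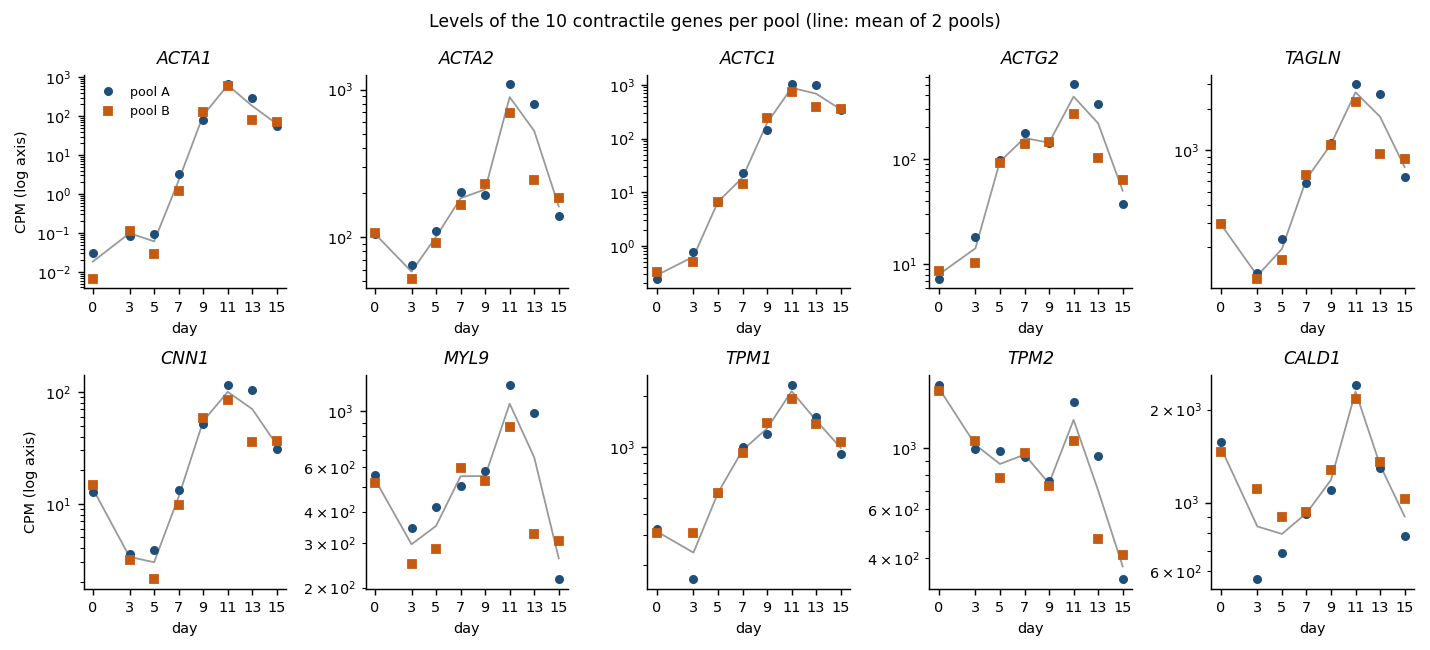
Level of each gene in each pool by day, as CPM on a log axis with its own scale per panel; circles are pool A, squares pool B and the line joins the means of 2 pools. ACTA1 and ACTC1 climb from below 1 CPM to D11 levels of 591.5 to 660.2 and 738.8 to 1031 CPM, whereas TPM2 is highest on D0.

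Counted over the 10 genes, 0 were called higher and 2 lower on D3 than on D0, against 13.1% and 12.6% of all genes tested. The steps up to D9 are counted over the 8 genes other than ACTA1 and ACTC1, whose early rises were partly built in. From D3 to D5, 1 rose and 0 fell (all genes 3.2% and 0.36%), and from D7 to D9, 1 rose and 0 fell (4.59% and 2.78%). From D5 to D7, edgeR called 0 of the 8 (1.81% and 0.242%), and DESeq2 called TAGLN and CNN1. In edgeR, 4 of the 8 had an unadjusted p under 0.05, as did 2064 of all 12794 genes. From D9 to D11, 3 of the 10 genes rose and 0 fell, against 2.92% and 1.17% of all genes, and 1 of these 3 is among the 8. All 10 genes had a positive log2 fold change at that step, with a median of 1.09 against 0.05 over all genes. The 3 calls of that step were lost without any 1 of D9 A, D9 B and D11 A, and 1 was left without D11 B. Pool A of D11, with 1088 CPM of ACTA2 against 692.7 in pool B, is one of the pools that stood apart.

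After D11 most levels were lower, but no step passed the test in edgeR. From D11 to D13, 0 of the 10 genes were called (all genes 0.0469% higher and 0.0703% lower), and DESeq2 called 0. In edgeR, 3 of the 10 had an unadjusted p under 0.05, as did 2074 of all 12794 genes. From D13 to D15, 0 were called by edgeR (all genes 0% and 0.086%). An unadjusted p under 0.05 was found for 8 of the 10 and for 2962 of all 12794 genes. The log2 fold change was negative in all 10, with a median of -1.07 against -0.05 over all genes. DESeq2 called ACTA2 (-1.62) and ACTG2 (-2.03) lower at that step. Stricter cell limits (2000 or more genes, mitochondrial share up to 5%) kept 83.4% and 29.0% of the D13 cells against 29.4% and 16.9% of the D15 cells. In the cells so kept, the pools of those days overlapped for ACTA2 (854.4 and 453.5 CPM on D13, 369.3 and 547.4 on D15). They also overlapped for TAGLN (2685 and 1669, then 1394 and 1906) and ACTC1 (1087 and 665.7, then 803.3 and 820.7). For ACTG2 they did not (341.7 and 201.5, then 83.86 and 171.1). The part of cell quality in this step was not tested. Without pool B of D13, edgeR called 5 genes lower on D15, ACTA2 (log2 fold change -2.19), ACTG2 (-2.61), TAGLN (-1.63), MYL9 (-1.79) and TPM2 (-1.21), and 382 genes in all, against 11 with that pool.

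Between D0 and D15 the genes of the set went different ways. TAGLN, ACTG2 and TPM1 were called higher and TPM2 lower. The striated-type actins were far above the starting cells, a difference that the gene filter fixed. In edgeR's test 3 of the 8 genes other than ACTA1 and ACTC1 were higher and 1 lower, against 26.8% and 26.7% of all genes. With 8 genes, these counts are not read as different from the shares over all genes. For ACTA1 and ACTC1, whose difference the filter fixed, the log2 fold change was 11.56 ± 0.88 and 10.21 ± 0.56. By counted UMIs alone the D15 to D0 ratio was 3440 for ACTA1 (95% counting interval 1580 to 9390, on 6 UMIs at D0) and 1260 for ACTC1 (1020 to 1570). The log2 fold change was 2.59 ± 0.47 for ACTG2, 1.58 ± 0.26 for TPM1, 1.30 ± 0.32 for TAGLN and -2.22 ± 0.26 for TPM2 (adjusted p 8.91e-06 to 0.00342). CNN1 (1.24 ± 0.37, adjusted p = 0.0106), ACTA2 (0.55 ± 0.38, adjusted p = 0.217), MYL9 (-1.11 ± 0.37, adjusted p = 0.0197) and CALD1 (-0.81 ± 0.30, adjusted p = 0.0287) were not called. The TAGLN call was lost without pool A or B of D0 or pool B of D15 (adjusted p 0.0229 to 0.0329), and with no gene filter (0.0104).

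The D15 levels depended on which cells were kept. The median share of mitochondrial UMIs was 5.69% and 6.22% in the D15 pools against 2.96% and 3.33% on D0, and a stricter limit (2000 genes and at most 5% mitochondrial UMIs) kept 29.4% and 16.9% of the D15 cells against 95.4% and 95.1% of the D0 cells. In the D15 cells it kept, ACTA2 stood at 369.3 and 547.4 CPM in place of 139.7 and 182.8, TAGLN at 1394 and 1906, ACTC1 at 803.3 and 820.7, and TPM2 at 563.0 and 779.8. With that limit ACTA2 was called higher on D15 than on D0 (log2 fold change 1.96 ± 0.29, adjusted p = 7.86e-05) and so was CNN1 (1.69 ± 0.32, adjusted p = 0.000648). The part of cell quality in the D15 levels was not tested.

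The share of cells with a UMI of each gene was read at an equal depth of 5000 UMIs per cell, drawn at random. No cell was shallower than that. ACTC1 had a UMI in 0.0977% and 0.173% of cells in the D0 pools, 6.83% and 2.56% on D7, 15.6% and 27.6% on D9, 83.1% and 36.8% on D11, 42.7% and 57.7% on D13, and 26.6% and 37.0% on D15. ACTA1 had 0.0163% and 0% on D0 (0 of 4634 cells allows up to 0.0647%), against 10.2% and 18.7% on D9 and 63.9% and 35.9% on D11. Such limits and intervals cover counting error only. POU5F1, which untreated fibroblasts should lack, was at 0.0651% and 0.0432% of D0 cells, so the D0 shares of ACTA1 lie at or below that background. On D11 a UMI of either striated-type actin was thus found in more cells of pool A than of pool B. Pool A of D11 is one of the pools that stood apart. At this depth 84.6% of its cells had a UMI of COL1A1 and 80.9% one of POU5F1. How many of its cells expressed the actins was not tested.

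ACTA2 was in 39.2% and 40.9% of D0 cells, 26.4% and 22.5% on D3, 85.9% and 39.5% on D11 and a mean of 18.7% on D15. ACTG2 was in 2.78% and 2.57% of D0 cells and 45.2% and 29.1% on D7, and CNN1 in 5.21% and 6.28% on D0 and 38.1% and 25.7% on D11. TPM2 and CALD1, in 99.7% to 99.9% of D0 cells, were in 64.1% and 72.6% and in 79.0% and 87.1% on D15. Without thinning the mean shares on D15 were 86.5% for ACTC1, 58.7% for ACTA2 and 99.2% for TPM2, in pools with a median of 57141 and 29973 UMIs per cell.

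Cells from D9 on were then compared by class within the same pools. COL1A1-high cells had COL1A1, the collagen of fibroblasts, at 200 CPM or more and POU5F1 below 50, and POU5F1-high cells had POU5F1, a core pluripotency factor, at 100 CPM or more and COL1A1 below 100. A pool entered with at least 20 cells of each class. These were 6 of the 8 pools, with 20 to 769 COL1A1-high and 283 to 1416 POU5F1-high cells each. Pool A of D11 had 14 and 8 such cells and pool A of D15 had 17 and 456, so neither entered. Most other markers followed the class names. COL3A1 was at 392.3 to 911.3 CPM in COL1A1-high against 5.32 to 27.7 CPM in POU5F1-high sums, and TDGF1 at 15.6 to 104.8 against 392.2 to 799.7 CPM. THY1, also on the fibroblast list, overlapped, at 200 to 703 CPM against 281 to 547. CDH1, on the pluripotency list, overlapped too, at 0.189 to 18.0 CPM against 11.3 to 39.6.

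Most of the contractile genes were on the collagen side, ACTA1 was on the other, and CNN1 was not called. In edgeR's test with the pool as a block, 8 of the 10 were higher in COL1A1-high cells and 1 lower, against 25.7% and 25.8% of all genes tested. The median log2 fold change over the 10 genes was 2.22, and -0.02 over all genes. The count was 9 with each 1 of the 6 pools left out in turn, pool B of D13 included, and 9 with every CPM limit multiplied by 4, when all 8 pools entered. Over all genes there were 6582 calls, 5076 to 6404 with a pool left out and 9091 with the 4-fold limits.

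ACTA2 showed the widest separation. It had 605.1 and 738.0 CPM in the COL1A1-high sums of D9 A and B, 1948 in D11 B, 3176 and 1073 in D13 A and B, and 799.6 in D15 B. The POU5F1-high sums of the same pools, in that order, had 22.6, 41.1, 35.3, 20.9, 76.2 and 38.4 CPM. The groups did not overlap, and the log2 fold change was 4.93 ± 0.47 (adjusted p = 2.76e-05, edgeR, higher in 6 of 6 pools). The POU5F1-high level was 0.656% to 7.11% of the COL1A1-high level, a range that overlaps those of the collagens COL1A2 (2.46% to 9.18%) and COL3A1 (1.03% to 5.28%), which pluripotent cells are not known for. No expression of ACTA2 in POU5F1-high cells is read from these values, and the part of free RNA in them was not tested.

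TAGLN had 2530 and 2604 CPM in the COL1A1-high sums of D9 A and B, 4514 in D11 B, 7405 and 2562 in D13 A and B, and 3776 in D15 B. In POU5F1-high sums it had 481.2, 509.6, 846.7, 730.1, 450.5 and 390.3 CPM. The groups did not overlap (log2 fold change 2.65 ± 0.15, adjusted p = 3.92e-06, edgeR, 6 of 6 pools). The POU5F1-high level was 9.86% to 19.6% of the COL1A1-high level, above the range of either collagen in these 6 pools. With every CPM limit multiplied by 4 and 8 pools it was 2.82% to 26.8%. That range overlaps those of COL1A2 (1.29% to 10.6%) and COL3A1 (0.718% to 9.17%), but within each pool TAGLN lay above both collagens. The closest pool was D15 A, at 2.82% against 1.29% and 0.718%. The part of free RNA in these levels was not tested.

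The summed level of ACTC1 was higher in COL1A1-high cells of every pool, although the groups overlapped across pools. It had 315.3, 478.0, 1170, 2488, 1132 and 1312 CPM in COL1A1-high sums of D9 A, D9 B, D11 B, D13 A, D13 B and D15 B, and 69.1, 125.6, 317.5, 283.5, 216.2 and 161.6 CPM in the POU5F1-high sums. The log2 fold change was 2.36 ± 0.17 (adjusted p = 8.78e-06, edgeR). The typical cell did not follow the sums in every pool. The median ACTC1 level per cell was lower in COL1A1-high than in POU5F1-high cells of D9 A (0 against 10.9 CPM), D9 B (12.5 against 41.0) and D11 B (38.5 against 43.6), and higher in the other 3 pools. The median share of cells with a UMI was 39.6% in COL1A1-high and 33.0% in POU5F1-high cells at 5000 UMIs, but 74.6% and 87.3% without thinning.

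ACTA1 went the other way. COL1A1-high sums had 11.02, 6.65, 45.5, 20.5, 62.2 and 19.99 CPM in the same order of pools, and POU5F1-high sums 158.0, 194.7, 729.9, 351.3, 81.7 and 66.0 CPM. The groups did not overlap in these 6 pools. With every CPM limit multiplied by 4 and 8 pools they did, at 4.14 to 157.8 against 34.4 to 911.1 CPM, though ACTA1 was lower in each pool. In the 6 pools the log2 fold change was -3.57 ± 0.53 (edgeR, adjusted p = 0.00031), lower in 6 of 6 pools. In D13 B, the pool that stood apart, the values were closest, 62.2 against 81.7 CPM. By class sums, ACTA1 and ACTC1 were thus on opposite sides, but by median level per cell both were lower in COL1A1-high cells of D9 A, D9 B and D11 B. The COL1A1-high level of ACTA1 was 3.41% to 6.97% of the POU5F1-high level in D9 A, D9 B, D11 B and D13 A, 76.2% in D13 B and 30.3% in D15 B. For the pluripotency markers TDGF1 and L1TD1 it was 24.1% and 23.0% in D13 B, 24.8% and 12.3% in D15 B, and 2.53% to 5.9% and 5.73% to 21.7% in the other 4 pools. Whether the transfected COL1A1-high cells express these markers was not tested. The study reports low expression of embryonic genes in its late somatic clusters. Set against the markers of its own pool, ACTA1 lay below both in D9 B, between them in D9 A and D11 B, and above both in D13 A (5.85% against 3.73% and 5.73%), D13 B and D15 B. The last 2 pools had 31 and 20 COL1A1-high cells, with 38 and 8 UMIs of ACTA1. The part of free RNA in these levels was not tested.

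ACTG2 ranged from 52.5 to 1119 CPM in COL1A1-high and from 21.4 to 113.3 CPM in POU5F1-high sums (log2 fold change 2.69 ± 0.27, adjusted p = 3.93e-05, 6 of 6 pools). The filament and myosin genes MYL9, TPM1, TPM2 and CALD1 were at 843.5 to 2447, 2343 to 4024, 1099 to 2741 and 1918 to 4133 CPM in COL1A1-high sums. In POU5F1-high sums they were at 185.6 to 415.9, 589.3 to 855.1, 253.3 to 447.9 and 467.9 to 1047 CPM, with no overlap for any of the 4. Their log2 fold changes were close together, 2.04 to 2.24 (adjusted p 3.73e-06 to 3.41e-05, edgeR). The share of all genes with no overlap between the class sums was not counted. CNN1 was the gene that did not separate: it had 55.7 to 132.7 CPM in COL1A1-high and 27.2 to 78.6 in POU5F1-high sums, was higher in 5 of 6 pools, and had a log2 fold change of 0.44 ± 0.17 (adjusted p = 0.0401).

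**Figure D3:**
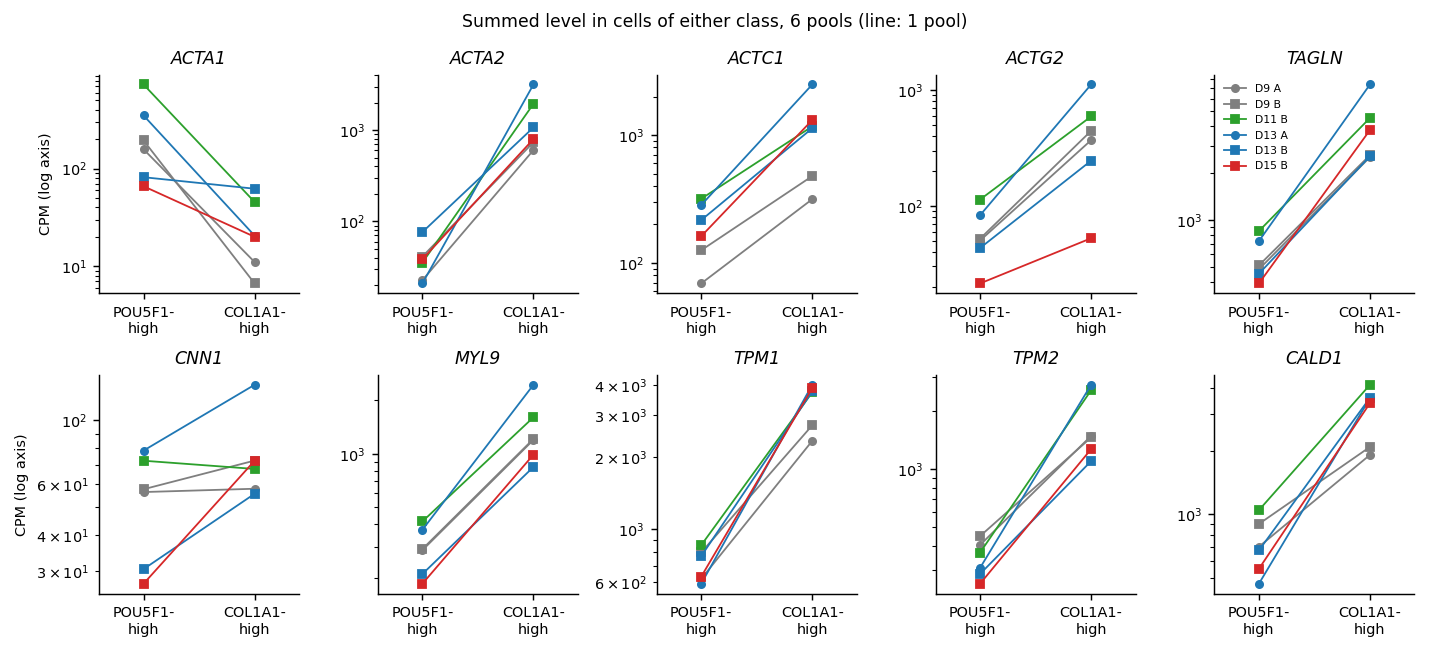
Summed level of each gene in POU5F1-high (left) and COL1A1-high cells (right) of 6 pools, as CPM on a log axis; each line joins the classes of 1 pool, circles are pool A and squares pool B, and colours mark the day. Lines rise from left to right in 6 of 6 pools for 8 genes, in 5 of 6 for CNN1 and in 0 of 6 for ACTA1.

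The class difference was also compared between late (D13 and D15) and earlier pools (D9 and D11). Among the 10 genes 0 were called in edgeR's interaction test (all genes 0.0625% higher and 0.0156% lower), and DESeq2 called 0. In edgeR, 4 of the 10 had an unadjusted p under 0.05, as did 1674 of all 12794 genes. The largest estimate was that of ACTA1 (1.65 ± 0.82, log2, adjusted p = 0.445). The smallest p was that of CALD1, whose class difference was larger by 0.96 ± 0.22 (log2) in the late pools (adjusted p = 0.0954). It was called without pool B of D11 (1.21 ± 0.18, adjusted p = 0.00811).

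Set against untreated fibroblasts, the COL1A1-high cells of D9 to D15 carried more of most contractile transcripts. Using the same limits, COL1A1-high cells numbered 5970 and 4512 in the D0 pools. Leaving aside ACTA1 and ACTC1, whose difference from D0 the filter fixed, 5 of the other 8 genes were higher and 0 lower in edgeR's test, against 9.72% and 9.66% of all genes tested. ACTC1 was at 0.239 and 0.324 CPM on D0 and at 315.3 to 2488 CPM in the 6 late pools (log2 fold change 11.72 ± 0.56). ACTA1 was at 0.0306 and 0.00690 CPM on D0 and at 6.65 to 62.2 CPM later (9.97 ± 1.07), again from 6 UMIs on D0.

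TAGLN stood at 292.3 and 288.6 CPM in D0 cells, at 134.5 to 759.5 CPM in COL1A1-high cells of D3 to D7, and at 2530 to 7405 CPM from D9 (log2 fold change from D0 3.62 ± 0.38, adjusted p = 4.69e-05). ACTA2 went from 105.6 and 106.4 CPM through 58.7 to 244.1 CPM to 605.1 to 3176 CPM (3.42 ± 0.39, adjusted p = 8.33e-05). The fold changes were 5.15 ± 0.59 for ACTG2, 3.35 ± 0.26 for TPM1 and 2.36 ± 0.33 for CNN1 (log2, adjusted p 7.39e-06 to 0.00033, edgeR). All of these late sums lay above both D0 pools. The share of all genes for which this held was not counted.

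TPM2 was an exception, at 1700 and 1610 CPM on D0 and 1099 to 2741 CPM from D9 (log2 fold change -0.03 ± 0.27, adjusted p = 0.964). In whole pools TPM2 was lower on D15 than on D0, and the difference between those comparisons was not tested. MYL9 (1.21 ± 0.34, adjusted p = 0.0192) and CALD1 (0.95 ± 0.26, adjusted p = 0.017) missed the call and passed it with DESeq2 (adjusted p 0.00228 and 0.00293). In edgeR, MYL9 was also called with halved, doubled and 4-fold CPM limits (log2 fold change 1.48, 1.35 and 1.42). CALD1 was called there with doubled and 4-fold limits (1.16 and 1.34). Without pool B of D13 the log2 fold change of MYL9 was 1.35.

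**Figure D4:**
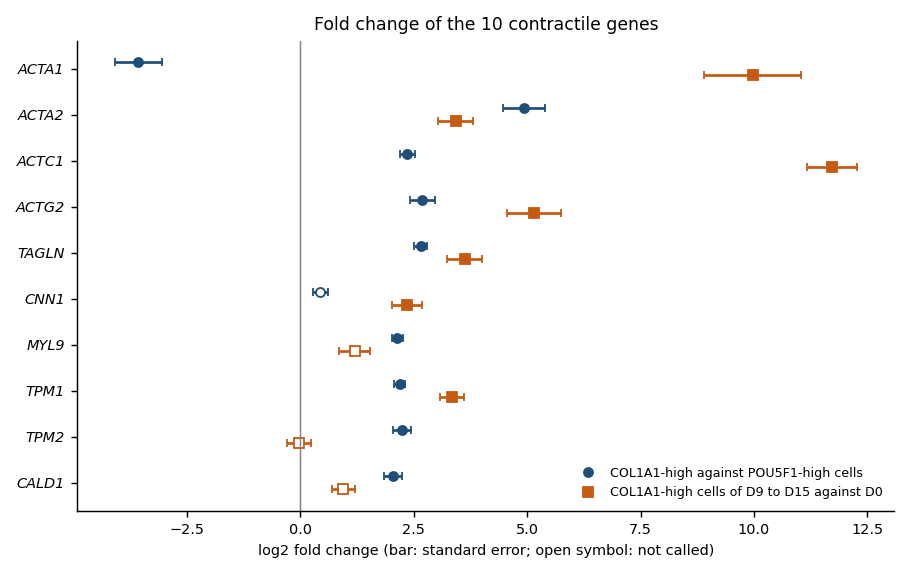
Log2 fold change with its standard error for each gene, in COL1A1-high against POU5F1-high cells (circles) and in COL1A1-high cells of D9 to D15 against D0 (squares); filled symbols passed the test. ACTA1 is at -3.57 in the first and 9.97 in the second comparison, and TPM2 at 2.24 and -0.03; the second comparison's values of ACTA1 and ACTC1 were built into the gene filter.

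Within a class the actins varied widely from cell to cell. In COL1A1-high cells, ACTC1 had a median of 0 to 275 CPM per cell over the 6 pools but a 90th percentile of 388 to 7320 CPM. In D13 A the median was 73.3 and the 90th percentile 7320 CPM, so most of these cells were far below the sum of that class, 2488 CPM. In POU5F1-high cells the ACTC1 median was 10.9 to 137 and the 90th percentile 66.9 to 664 CPM. ACTA1 had a median of 0 in the COL1A1-high cells of all 6 pools. In POU5F1-high cells its median was 0 to 112 CPM and its 90th percentile 79.5 to 2140 CPM. TAGLN had a COL1A1-high median of 1320 to 6730 CPM, a 10th percentile of 131 to 929 and a 90th of 4440 to 14500. For ACTA2 the median was 141 to 1870 and the 90th percentile 1590 to 7810 CPM.

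**Figure D5:**
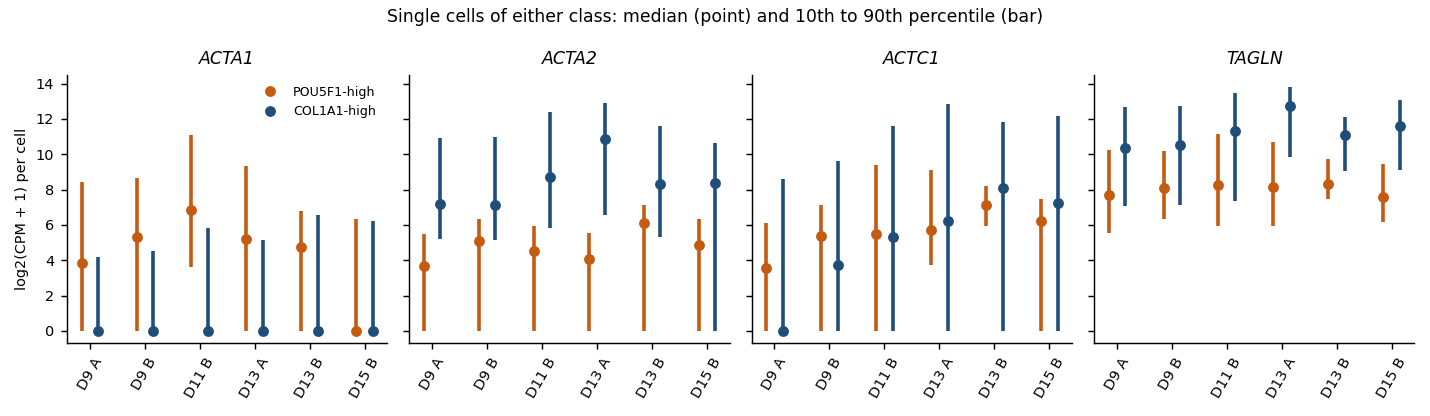
Spread of ACTA1, ACTA2, ACTC1 and TAGLN over single cells of either class in each of 6 pools, as log2(CPM + 1); points are medians and bars run from the 10th to the 90th percentile. In COL1A1-high cells the ACTA1 point lies at 0 in every pool, while the ACTC1 bars reach 388 to 7320 CPM.

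Cells with 1000 CPM or more of an actin were counted by day. For ACTC1 they were 0 of 10776 cells on D0, which allows a share of up to 0.0278%, 10 of 4230 on D7 (0.236%), 148 of 3395 on D9 (4.36%), 1019 of 6207 on D11 (16.4%), 582 of 5446 on D13 (10.7%) and 167 of 2679 on D15 (6.23%). Of the 1916 such cells from D9 on, 316 were COL1A1-high, 210 POU5F1-high and 1390 in neither class. ACTA2 had 2 such cells on D0, 11 of 2582 on D5 (0.426%), 179 of 4230 on D7 (4.23%) and 204 of 3395 on D9 (6.01%). It had 2333 from D9 on, of which 698 were COL1A1-high and 12 POU5F1-high. ACTA1 had 2 on D7 and 997 from D9 on, of which 10 were COL1A1-high and 397 POU5F1-high. Most cells in neither class came from the pools that stood apart, where 99.2% (D11 A) and 92.3% (D13 B) of cells were in neither. Without those pools the ACTC1 cells at this level were 486 of 3282 on D11 (14.8%) and 235 of 1377 on D13 (17.1%), so that D13 was no longer below D11. From D9 on they were then 1036, with 302 COL1A1-high, 201 POU5F1-high and 533 in neither class. ACTA2 then had 1243 (684 COL1A1-high, 12 POU5F1-high) and ACTA1 604 (10 and 394). The classes differed in size, so these counts are not shares. In D11 B, ACTC1 reached this level in 130 of 769 COL1A1-high, 110 of 1416 POU5F1-high and 246 of 1097 neither cells. In D13 A these were 103 of 309, 38 of 717 and 94 of 351. Of the same COL1A1-high and POU5F1-high cells of D11 B, 326 and 4 reached it for ACTA2, and 6 and 254 for ACTA1. Summed over the neither cells of the 6 pools, ACTA2 was at 120.0 to 1034, TAGLN at 944.5 to 3529 and ACTC1 at 121.2 to 1658 CPM.

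Other contractile and adhesion genes were compared in the same way, with 25.7% of all genes higher and 25.8% lower between the classes, and 9.72% and 9.66% against D0. Genes under 1 CPM on D0 passed the filter through the later days and are left out of the counts against D0. Of a list of smooth muscle and focal adhesion genes, 15 of 16 were tested and 13 were higher and 0 lower in COL1A1-high than in POU5F1-high cells, with a median log2 fold change of 1.498. They included LMOD1, a leiomodin that nucleates actin filaments (4.14 ± 0.41), MYLK, the kinase that phosphorylates the MYL9 light chain (3.78 ± 0.34), PALLD (3.07) and SYNPO2 (2.82). Compared with D0 fibroblasts, however, the late COL1A1-high cells had less MYLK (-1.93 ± 0.27, adjusted p = 0.000281) and less LMOD1 (-1.29 ± 0.28, adjusted p = 0.00461). DES (desmin, 5.30 ± 0.59) and CSRP1 (1.59 ± 0.37) were higher, and the other 11 tested genes of that list were not called.

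Of the actin, tropomyosin, calponin and myosin genes used outside muscle, all 13 tested, 8 were higher and 1 lower in COL1A1-high than in POU5F1-high cells. Their median log2 fold change of 0.64 compares with 2.22 for the 10 muscle-type genes. MYH9, a non-muscle myosin heavy chain, led with 1.68 ± 0.17. Against D0, 2 of the 13 were higher in late COL1A1-high cells, CNN2 (1.63 ± 0.22) and ACTN4 (0.73 ± 0.17), and 0 lower.

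Of SRF and its cofactors, 3 of 5 were higher in COL1A1-high cells and 0 lower. They were MYOCD, which encodes myocardin (log2 fold change 3.24 ± 0.39, adjusted p = 0.0001), FHL2 (1.246 ± 0.15) and MKL1, which encodes an MRTF (0.65 ± 0.17). MYOCD was also the 1 gene of the 5 that was higher in late COL1A1-high cells than on D0 (3.92 ± 0.55, adjusted p = 0.000315), and it was higher on D3 than on D0 (1.48 ± 0.35, adjusted p = 0.00529, edgeR), when TAGLN and CNN1 were lower. At D3 the smooth muscle list had 5 of 15 genes lower and 0 higher (all genes 12.6% and 13.1%), among them LMOD1 (-3.20 ± 0.35) and MYLK (-2.34 ± 0.32).

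Of 12 transforming growth factor beta and YAP response genes, 11 were higher and 0 lower in COL1A1-high than in POU5F1-high cells, with a median log2 fold change of 3.08. TGFBI (4.92 ± 0.36), the ligand TGFB2 (4.64 ± 0.29) and THBS1 (4.33 ± 0.21) changed most. ANKRD1, a YAP target also known as a cardiac ankyrin repeat protein, was at 0.0637 CPM on D0, so its difference from D0 (11.55 ± 0.59) was built into the gene filter. Of the other 11, 6 were higher and 1 lower in late COL1A1-high cells than on D0, CTGF by 5.34 ± 0.53.

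Of 17 striated muscle genes, 7 were detected in enough cells to be tested. In COL1A1-high against POU5F1-high cells 4 were higher, among them TNNI1 (3.55 ± 0.51), MYL4 (3.23 ± 0.56) and TNNT2 (2.197 ± 0.27), and 1 was lower, TNNI3 (-3.28 ± 0.53). All 7 were under 1 CPM on D0, so their direction against D0 was fixed by the filter and is not counted. The defining heavy chains of cardiac muscle stayed near 0. MYH6 had 1 UMI and MYH7 2 UMIs in all COL1A1-high cells of the 6 pools. TNNT2 was at 26.7 to 90.6 CPM there and at 6.55 to 15.9 CPM in POU5F1-high sums. MYL7 overlapped, at 4.85 to 225 against 5.94 to 40.9 CPM, and was not called (adjusted p = 0.109, edgeR). ACTN2 (0.265 to 5.0 against 1.06 to 1.72 CPM) and NKX2-5 (0.0352 to 5.0 against 0.273 to 0.846 CPM) overlapped too.

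Of the skeletal muscle factors, MYOD1, MYF5 and PAX7 had 0 UMIs in the COL1A1-high cells, which allows up to 0.0345 CPM, and MYOG had 3. CKM, the muscle creatine kinase and the fifth gene of that marker list, had 85 UMIs, at 0 to 7.5 CPM in COL1A1-high against 0.429 to 1.37 CPM in POU5F1-high sums. MYH11, the heavy chain that defines mature smooth muscle, was at 0 to 14.7 CPM in COL1A1-high and 0.219 to 1.39 CPM in POU5F1-high sums. Summed over 6 smooth muscle and pericyte markers, the level was 26.3 to 28.8 CPM on D0, 91.9 to 281.8 CPM in COL1A1-high and 42.4 to 91.1 CPM in POU5F1-high sums. The 6 cardiac markers summed to 0.109 to 0.180 CPM on D0, 32.0 to 307.4 CPM in COL1A1-high and 14.04 to 49.9 CPM in POU5F1-high sums. Endothelial and blood markers summed to at most 4.998 and 1.27 CPM in either class. The part of muscle-lineage cells in these results was not tested.

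Across the 16 pools, levels of the contractile genes as log2(CPM + 1) were compared by Pearson's r, as a description over pools that share the course of days. ACTA1 and ACTC1 had r = 0.96, TAGLN and CNN1 0.96, and TAGLN and ACTA2 0.95. TPM2 stood apart from the rest, with r between -0.49 (ACTC1) and 0.59 (MYL9). The genes outside the set most like TAGLN were HAAO (0.98), TGFB2 (0.97), EDN1 (0.96), TINAGL1 (0.96) and RAMP1 (0.96). Those most like ACTA2 were WFDC1 (0.96), HAAO (0.96), MAP3K7CL (0.96), HSD17B6 (0.95) and RAMP1 (0.93). Those most like ACTC1 were RASL11B, VAMP8, DRAXIN, GPX3 and PTGES3L, all at 0.99. HAAO and RAMP1 were thus shared by TAGLN and ACTA2, and no gene was shared with ACTC1. Without pool A of D11 and pool B of D13 the r of these genes was 0.945 to 0.982 for TAGLN, 0.922 to 0.951 for ACTA2 and 0.989 to 0.994 for ACTC1, that of ACTA1 and ACTC1 0.956, of TAGLN and CNN1 0.949, of TAGLN and ACTA2 0.943, and that of TPM2 -0.625 (ACTC1) to 0.499 (MYL9).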

How the data were processed

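Single cells of 16 pools (2 per day, 8 days) were profiled with a 3′ UMI assay. The authors deposited UMI counts per gene and cell, made with Cell Ranger 2.2 on hg38 (GRCh38) per the labels, and the 22 libraries were added up here into pools. A barcode was kept with 1000 or more genes and no more than 10% of its UMIs mitochondrial, doublets were not removed, and UMIs were summed per pool, or per pool and class. The class limits were 200, 100 and 50 CPM as given in the report. Genes with a UMI in at least 5% of kept cells were tested with edgeR 4.0.16 (quasi-likelihood, TMM) in R 4.3.3, in 1 fit over all pools for the days, with pool as a block for the classes. Standard errors are the log2 fold change divided by the square root of F. DESeq2 1.42.0, other normalization, no gene filter, stricter cells, other CPM limits and leaving out each pool were alternatives. CPM limits multiplied by 4, and cell counts and correlations without pool A of D11 and pool B of D13, were added after seeing the data, as was leaving genes under 1 CPM on D0 out of counts against D0. Cells were thinned to 5000 UMIs for shares.

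The pool letter was not treated as a pairing: over 28 pairs of days, the correlation of the letters' deviations ran from -0.399 to 0.805 (median -0.024). The cell limits, the 5% gene filter and the thresholds follow the study's methods, but the study drew an equal number of cells per day at random before its gene filter, and here all 41975 kept cells entered it. All 10 genes were tested in every comparison, and of other lists at most 4 called genes with the largest change were named. For likeness, the 5 genes with the highest correlation over pools were named. The genes and lists were chosen with earlier results of these data known. Scripts were tested on simulated data. Pool depth of 33181614 to 180056814 UMIs makes counting error small in whole pools except for ACTA1 and ACTC1 on early days. Class sums were shallower. The COL1A1-high sum of D15 B held 8 UMIs of ACTA1, 21 of ACTG2 and 29 of CNN1. Classes cut from levels are ranges and not types: 20.8% to 47.2% of cells in a pool lay within a factor of 1.25 of a limit.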

Additional observations from a re-analysis of the deposited data

Results flagged for a closer look

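In 2 of 20 groups of 6 pools tested (10 genes in either class), 1 pool lay far from the others by Dixon's ratio at the 95% level, which chance alone gives in about 1 of 20 groups. ACTA2 in POU5F1-high cells was at 76.24 CPM in pool B of D13, against 41.05 CPM in the next pool (ratio 0.635). That pool is one of those in which most cells carried both COL1A1 and POU5F1. CNN1 in COL1A1-high cells was at 132.7 CPM in pool A of D13, against 72.55 CPM in the next pool (ratio 0.781). Left out in turn, neither pool changed the number of genes called between the classes.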

How the results depend on the processing

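The class comparison gave 9 called genes under each alternative run, while its calls over all genes ran from 5059 (no replicate block) to 9091 (4-fold CPM limits) against 6582, and COL1A1-high cells against D0 gave 7 to 9, ACTA1 and ACTC1 included. Of the refitted log2 fold changes of single genes that were called, 392 kept their call, 34 lost it and none changed direction. Counts that moved were those of steps between days. From D0 to D3 there was 1 with no gene filter and 0 in a fit of only the 4 pools of both days, which has few residual degrees of freedom. From D3 to D5 the 4-pool fit gave 0. From D5 to D7, 4 genes were called with DESeq2, 2 with DESeq2 size factors, 2 with no gene filter, 3 with stricter cells and 3 in the 4-pool fit, where TAGLN and CNN1 lay near the threshold. The 4-pool fit gave 5 from D9 to D11 and 10 from D0 to D15, and DESeq2 gave 2 from D13 to D15.

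Fitted with the pool letter as a replicate block, 3 genes were called from D5 to D7 (TAGLN and CNN1 added), CNN1 was called on D15 against D0 (adjusted p = 0.00607), and the block changed no other call of the 10 genes. Without the pool as a block, CNN1 between the classes had an adjusted p of 0.149 (0.0177 to 0.149 over its alternatives).

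With 1 pool left out, the counts ran from 1 to 3 (D0 to D3), 1 to 2 (D3 to D5), 0 to 1 (D5 to D7), 2 to 3 (D7 to D9), 0 to 1 (D9 to D11), 0 to 0 (D11 to D13), 0 to 5 (D13 to D15), 5 to 6 (D0 to D15), 9 to 9 (classes), 7 to 8 (COL1A1-high cells against D0) and 0 to 1 (interaction). Over all genes these counts were 1444 to 3028, 229 to 321, 28 to 239, 309 to 712, 67 to 199, 0 to 109, 0 to 382, 5194 to 5419, 5076 to 6404, 1064 to 3478 and 0 to 214, in that order. A day left with 1 pool was assumed to vary like the others.

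Counts over all genes depended more on the tool. DESeq2 called 473 against 15 genes from D11 to D13, 654 against 11 from D13 to D15, 1198 against 523 from D9 to D11, 610 against 263 from D5 to D7, 889 against 455 from D3 to D5, 1654 against 943 from D7 to D9, and 240 against 10 in the interaction. The 4-pool fit called 0 against 3280 from D0 to D3, 27 against 455 from D3 to D5, 162 against 263 from D5 to D7, 1067 against 523 from D9 to D11, and 0 against 15 and 11 at the last 2 steps. With no gene filter the calls were 1420 from D7 to D9, 1034 from D9 to D11, 79 and 82 at the last 2 steps, and 10895 against 6836 from D0 to D15. At the last 2 steps stricter cells gave 0 and 1, DESeq2 size factors gave 25 and 11, and the replicate block 15 and 4. Halved, doubled and 4-fold CPM limits gave 4032, 4110 and 4044 against 2479 for COL1A1-high cells against D0 and 0, 93 and 0 against 10 in the interaction, where DESeq2 size factors gave 0. Shares of cells with a UMI moved with depth, by more than the spread between pools in 138 of the values at 10000 UMIs or without thinning, and stayed within it in 22. The 2 pools per day limit what any step can show.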
